A study of Homo sapiens with 21 samples.

Results

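The genes described here encode the proteins of the cytosolic ribosome, in H1975 cells after 8 days of drug treatment. They were chosen by symbol alone: every gene of the deposited RNA-seq table named RPL or RPS followed by a number, with at most 1 further letter A, X or L, together with RPLP0, RPLP1, RPLP2 and RPSA. The rule found 80 of 34021 genes, 48 of the large subunit and 32 of the small subunit. Of these, 79 reached 1 FPKM (fragments scaled by gene length and by library size) in at least 3 libraries and were tested. RPL3L, a striated-muscle paralog of RPL3, lay between 0 and 0.23 FPKM in all 9 libraries and was not tested.

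H1975 is an established human lung adenocarcinoma cell line with EGFR mutations. The series concerns circular RNAs after EGFR inhibitor treatment, and 9 of its 21 samples are the RNA-seq libraries used here, with 3 libraries in each of 3 groups. The vehicle group, DMSO_EV, received DMSO and carried what the label calls EV, which is not spelled out. The group Osi_Lin_EV received osimertinib, an EGFR kinase inhibitor, at 500 nM and linsitinib, an inhibitor of the IGF1 and insulin receptors, at 500 nM, with EV named in the sample titles only. The group Osi_cIGF1R received osimertinib at 500 nM and is labelled as overexpressing cIGF1R, with no EV in its labels. Between DMSO_EV and Osi_cIGF1R the drug and cIGF1R differ together, as no group with EV and osimertinib alone was used, and linsitinib and cIGF1R differ together between Osi_Lin_EV and Osi_cIGF1R. Whether replicate libraries are separate cultures is not in the labels, and p-values here measure only the spread between libraries, which may be technical.

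The cytosolic ribosome is built from ribosomal RNA and about equal copies of each ribosomal protein, which are made in the cytoplasm, carried into the nucleolus and assembled there. Their mRNAs usually begin with a C followed by a run of pyrimidines, the 5′ terminal oligopyrimidine (TOP) tract, through which mTORC1 and the RNA-binding protein LARP1 set their translation and stability. EGFR and the IGF1 receptor signal to mTORC1 through PI3K and AKT, and in lung carcinoma cells ribosome production rises and falls with growth.

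RefSeq annotated a start site within its promoter table for 63 of the 80 genes. In 46 of the 63 (73.0%) the base at the start on the gene's own strand was C and the next 4 or more bases were each C or T. The same held for 749 of 9908 tested genes with an entry (7.56%) and for 5.14% of all 27305 genes with one. Counted by entry, it held for 46 of 78 entries of the ribosomal protein genes (59.0%) and for 4.07% of all 35116 entries of the table. The windows below run from 40 bases before the start to 20 bases from the start itself, 5′ to 3′, in build GRCh38.p14 of RefSeq. Capitals mark the pyrimidine run at the start. They are shown because genes that carry the tract fell by very different amounts: RPS3A, RPS6, RPSA and RPLP0 are among those with large falls in Osi_cIGF1R, RPL11 lies in the middle, and RPS9 and RPS27 did not pass the test.
RPS3A, chr4:151099588-151099647, plus strand: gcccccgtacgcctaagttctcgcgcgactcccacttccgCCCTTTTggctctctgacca
RPS6, chr9:19380217-19380276, minus strand: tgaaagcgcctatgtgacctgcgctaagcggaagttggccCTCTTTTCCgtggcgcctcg
RPSA, chr3:39406680-39406739, plus strand: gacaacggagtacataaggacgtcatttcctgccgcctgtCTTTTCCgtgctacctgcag
RPLP0, chr12:120201092-120201151, minus strand: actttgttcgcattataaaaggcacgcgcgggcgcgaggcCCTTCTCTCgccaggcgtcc
RPL11, chr1:23691766-23691825, plus strand: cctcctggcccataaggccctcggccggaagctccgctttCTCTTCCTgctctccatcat
RPS9, chr19:54200818-54200877, plus strand: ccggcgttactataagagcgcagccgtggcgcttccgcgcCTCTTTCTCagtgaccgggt
RPS27, chr1:153990722-153990781, plus strand: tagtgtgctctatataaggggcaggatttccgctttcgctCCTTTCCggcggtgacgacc
The runs of these 7 genes are 7 to 9 bases long, and those of RPS9 and RPS6 are both 9 bases.

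Epithelial keratins dominated the marker genes: the summed level of 6 epithelial markers lay between 11202.6 and 15201.2 FPKM in every library, with KRT8 the highest. Markers of alveolar cells and lung adenocarcinoma were close to absent, at 0.640 to 2.16 FPKM summed over NKX2-1, NAPSA, SFTPB and SFTPC. Fibroblast markers (5 of 6 in the table) summed to 3.35 to 6.10 FPKM and leukocyte markers to 1.85 to 4.48 FPKM. Endothelial markers (3 of 4 in the table) summed to 3.55 to 4.08 FPKM in DMSO_EV, 0.135 to 0.207 in Osi_Lin_EV and 0.736 to 0.955 in Osi_cIGF1R, with CDH5 the highest. SFTPC, DCN and LYZ were listed at 0 in all DMSO_EV libraries and SFTPB, COL1A2, COL3A1 and CD3E in all Osi_cIGF1R libraries. The part of these low levels in the results below was not tested. Column totals ranged from 338034 to 474156 FPKM, and mitochondrially encoded genes took 20.3 to 30.4% of the total in DMSO_EV, 20.4 to 25.6% in Osi_Lin_EV and 6.08 to 7.28% in Osi_cIGF1R. Libraries of 1 group correlated at 0.986 to 0.994 over tested genes and libraries of different groups at 0.817 to 0.929. The third Osi_cIGF1R library stood apart for the ribosomal protein genes, with the highest value of its group in 79 of 79 tested genes.

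Ribosomal protein mRNAs were among the most abundant in H1975. The median over the 79 tested genes was 554 FPKM in DMSO_EV, against 5.82 FPKM over all 13775 tested genes. Summed, the 80 genes came to 52904, 56158 and 54329 FPKM in the DMSO_EV libraries, to 49680, 51419 and 47048 in Osi_Lin_EV, and to 25085, 25353 and 34156 in Osi_cIGF1R. Every Osi_cIGF1R library lay below every library of the other groups, and every Osi_Lin_EV library lay below every DMSO_EV library. As a share of all FPKM outside the mitochondrial genome the sum was 16.0% ± 0.135 (SD, n = 3) in DMSO_EV, 14.8% ± 0.232 in Osi_Lin_EV and 8.49% ± 0.907 in Osi_cIGF1R. With mitochondrial genes in the total, the share was 11.2, 12.8 and 12.6% in the DMSO_EV libraries and 11.7, 11.9 and 10.9% in Osi_Lin_EV. On that share DMSO_EV and Osi_Lin_EV overlapped, and Osi_cIGF1R, at 7.42, 7.40 and 8.96%, lay below both. FPKM is relative to the whole library: less of an mRNA per cell and fewer cells that make it cannot be told apart, nor can less ribosomal protein mRNA and more of other RNA.

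**Figure D1:**
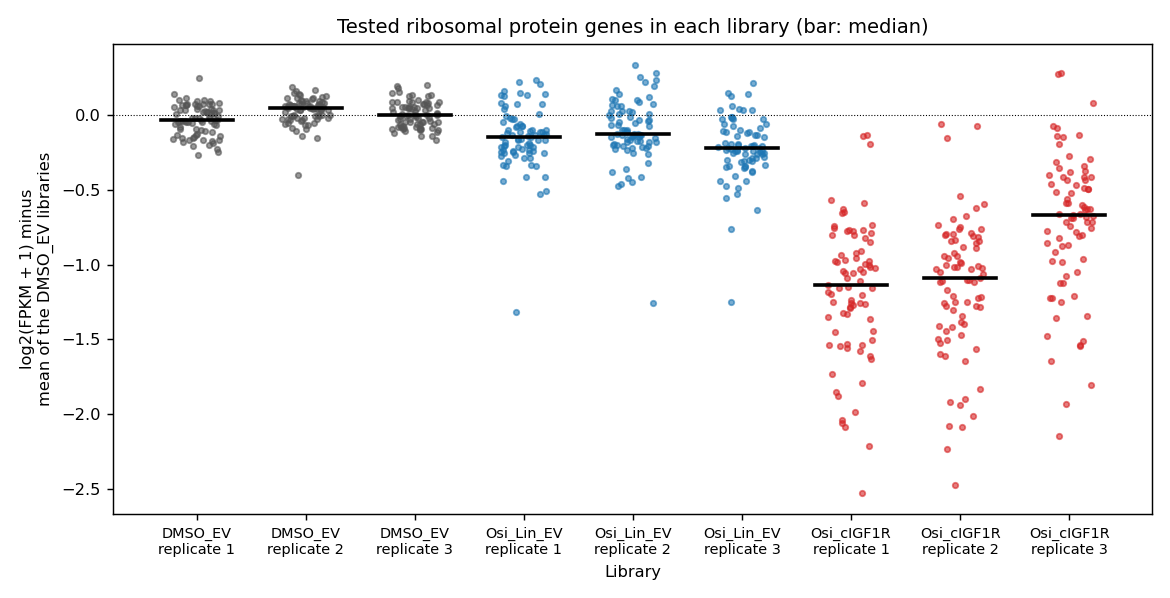
Each point is a tested ribosomal protein gene, drawn as its log2(FPKM + 1) in a library minus its mean over the 3 DMSO_EV libraries; bars are medians over the 79 genes and the sideways spread of the points is for legibility only. The medians of the Osi_cIGF1R libraries are -1.14, -1.09 and -0.67, those of Osi_Lin_EV lie between -0.22 and -0.13.

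Under osimertinib with cIGF1R overexpression, mRNAs of both ribosomal subunits were lower than with vehicle. Of the 79 tested genes, 75 fell, none rose and 4 did not pass the test (limma on log2(FPKM + 1), Benjamini-Hochberg adjusted p under 0.05 over all 13775 tested genes). Over all tested genes 35.8% fell and 33.1% rose, 69% in all. The median change was -0.96 over the ribosomal protein genes and -0.03 over all tested genes, in log2(FPKM + 1) here and for every log2 change below, each given with its standard error (SE). For 33 of the 79 the fall was by 1 or more and for none was there such a rise, against 11.4% and 10.4% of all tested genes. In 71 of the 79 the 3 Osi_cIGF1R values all lay below the 3 vehicle values and in none all above, against 36.5% and 33.3% of all tested genes. Of the 47 tested large-subunit genes 46 fell, with a median of -0.90, and of the 32 small-subunit genes 29 fell, with a median of -1.09. The fall was not even: the changes ran from -2.38 to 0.03, with quartiles of -1.26 and -0.72.

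**Figure D2:**
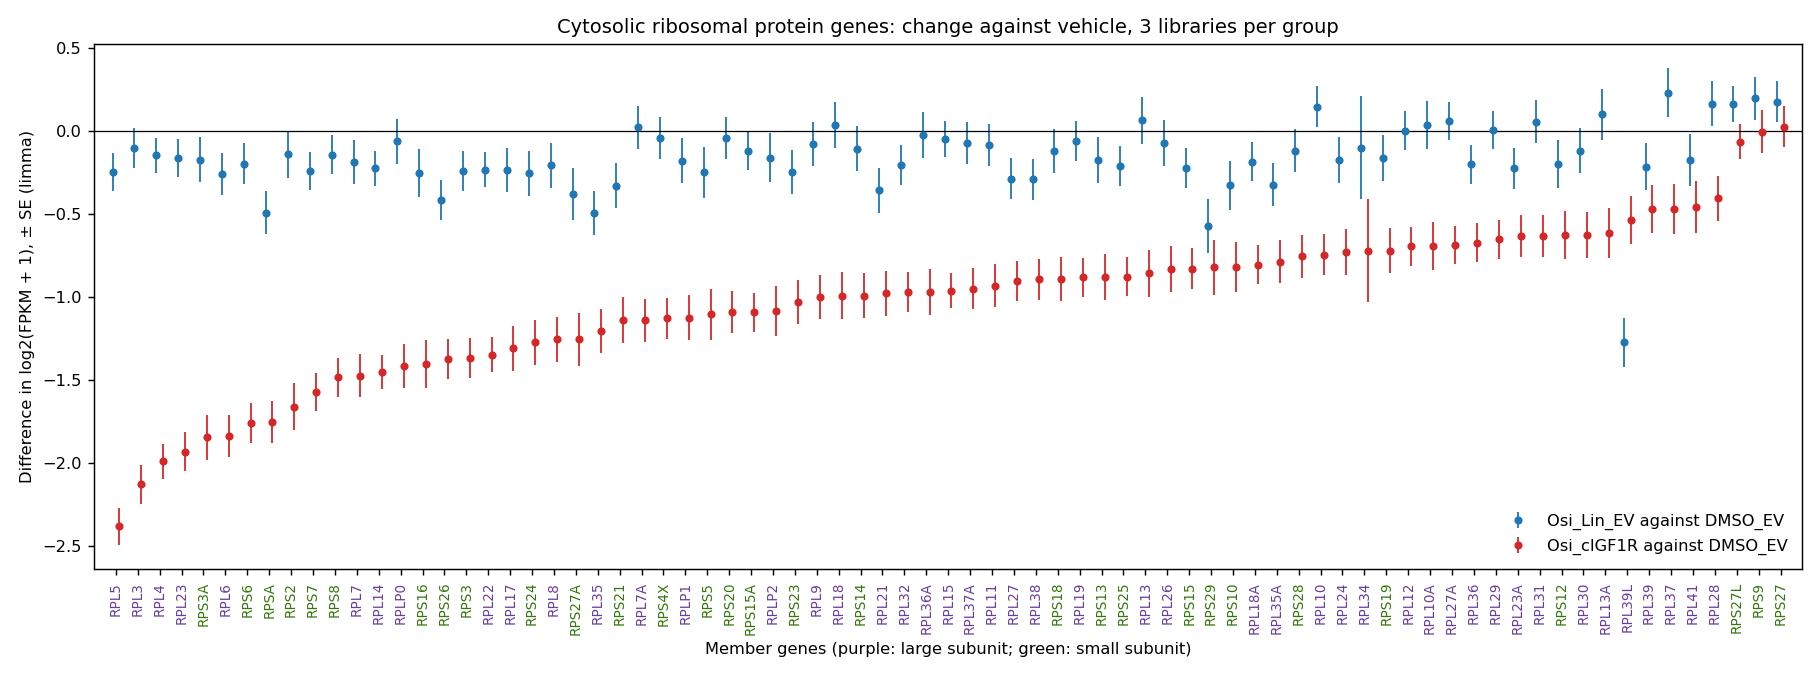
Change of 77 tested ribosomal protein genes against DMSO_EV in log2(FPKM + 1), with the limma standard error, ordered by the change in Osi_cIGF1R (red); Osi_Lin_EV is blue. The red points run from -2.38 for RPL5 to 0.03 for RPS27, whereas most blue points lie just under 0 and RPL39L stands at -1.27.

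The 4 largest falls were in the large subunit. RPL5, which with RPL11 and 5S ribosomal RNA forms the 5S particle of the large subunit, was at 551, 546 and 578 FPKM with vehicle and at 96.0, 99.7 and 126 FPKM in Osi_cIGF1R. Its groups were far apart, a mean of 558 ± 17.3 (SD, n = 3) against 107 ± 16.1 and 5.21-fold lower, for a change of -2.38 ± 0.11 (SE, limma adjusted p = 6.24e-10). RPL3, a core protein next to the peptidyl transferase centre, was at 1082, 1236 and 1159 FPKM with vehicle and at 248, 245 and 302 in Osi_cIGF1R, 4.37-fold lower (change -2.13 ± 0.12, limma adjusted p = 3.03e-09). RPL4, whose long extension lines the exit tunnel for the new protein, went from 282, 290 and 314 FPKM to 68.8, 69.2 and 83.7, a change of -1.99 ± 0.10 (limma adjusted p = 1.55e-09). RPL23, on the face that meets the small subunit, was at 123, 115 and 113 FPKM and then 27.3, 26.8 and 36.8, a change of -1.93 ± 0.12. No vehicle value of these 4 genes came near an Osi_cIGF1R value. In the large subunit RPL6 came next, with -1.84 ± 0.13.

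RPL11, the partner of RPL5, had a smaller change. It was at 538, 576 and 543 FPKM with vehicle and at 272, 256 and 347 in Osi_cIGF1R, a change of -0.93 ± 0.13 (limma adjusted p = 2.17e-05). The ratio of RPL5 to RPL11 within a library was 1.01 ± 0.0598 (SD, n = 3) with vehicle, 0.904 ± 0.0719 in Osi_Lin_EV and 0.368 ± 0.0186 in Osi_cIGF1R. The Osi_cIGF1R ratios, 0.353 to 0.389, lay below all 6 others. This ratio does not move with the scaling of a library.

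The stalk proteins, which recruit the translation factors to the large subunit, all fell. RPLP0, the base of the stalk, was at 1092, 1367 and 1280 FPKM with vehicle and at 429, 436 and 537 in Osi_cIGF1R, a change of -1.41 ± 0.14 (limma adjusted p = 6.74e-07). RPLP1 changed by -1.13 ± 0.14 and RPLP2 by -1.08 ± 0.15, and the Osi_cIGF1R values of both lay below every vehicle value. Among other large-subunit genes named for their paralogs, RPL10, which finishes the maturation of the subunit, changed by -0.74 ± 0.12 and RPL22 by -1.35 ± 0.11. RPL13A, the most abundant large-subunit mRNA, was at 1728, 2043 and 2021 FPKM with vehicle and at 1131, 1104 and 1591 in Osi_cIGF1R. Its change of -0.61 ± 0.15 passed the test (limma adjusted p = 0.00268) but not when each library was rescaled to the same total (adjusted p = 0.0675). RPL39, at the wall of the exit tunnel, changed by -0.47 ± 0.14 and its paralog RPL39L by -0.53 ± 0.15, and neither passed under that rescaling (adjusted p = 0.326 and 0.204).

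In the small subunit RPS3A fell most, from 395, 428 and 483 FPKM to 109, 107 and 149, a change of -1.84 ± 0.14 (limma adjusted p = 5e-08). RPS6, the protein phosphorylated by S6 kinase downstream of mTORC1, was at 483, 494 and 509 FPKM with vehicle and at 134, 130 and 177 in Osi_cIGF1R. Its change was -1.76 ± 0.12 (limma adjusted p = 2.63e-08), and the groups did not overlap. RPSA, the 40S protein also known as the laminin receptor precursor, changed by -1.75 ± 0.13. RPS2, the highest of all 80 mRNAs, went from 2391, 2676 and 2294 FPKM to 705, 688 and 955, a change of -1.66 ± 0.14. RPS27A, made as a fusion with ubiquitin, changed by -1.25 ± 0.16.

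The 4 genes that did not pass the test were RPL34, RPS27L, RPS9 and RPS27. RPS9, a small-subunit protein at the mRNA entry channel, was at 865, 922 and 872 FPKM with vehicle and at 802, 797 and 1077 in Osi_cIGF1R, and the groups overlapped (difference -0.01 ± 0.13, limma adjusted p = 0.975). RPS27, a zinc-finger protein of the small subunit, was at 720, 642 and 699 FPKM and at 626, 659 and 829, a difference of 0.03 ± 0.12 (limma adjusted p = 0.858). Both rose when each library was rescaled to the same total, with adjusted p = 0.00978 for RPS9 and 0.00315 for RPS27, and with quantile normalization. RPS27L, a paralog of RPS27 known as a p53 target, stood near 2 FPKM in all groups (2.06 ± 0.205, then 1.93 ± 0.280, SD, n = 3). RPL34 was the most variable gene in each group, at 292, 186 and 272 FPKM with vehicle and 96.9, 151 and 224 in Osi_cIGF1R. Its change of -0.72 ± 0.31 had a limma adjusted p of 0.0653, which became 0.00784 without the third Osi_cIGF1R library. RPL28 was the smallest fall that passed, at -0.41 ± 0.13, and it did not pass in 5 of the other settings, with adjusted p = 0.567 under the same rescaling. RPS9, RPL34 and RPL28 were singled out after their values were seen.

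**Figure D3:**
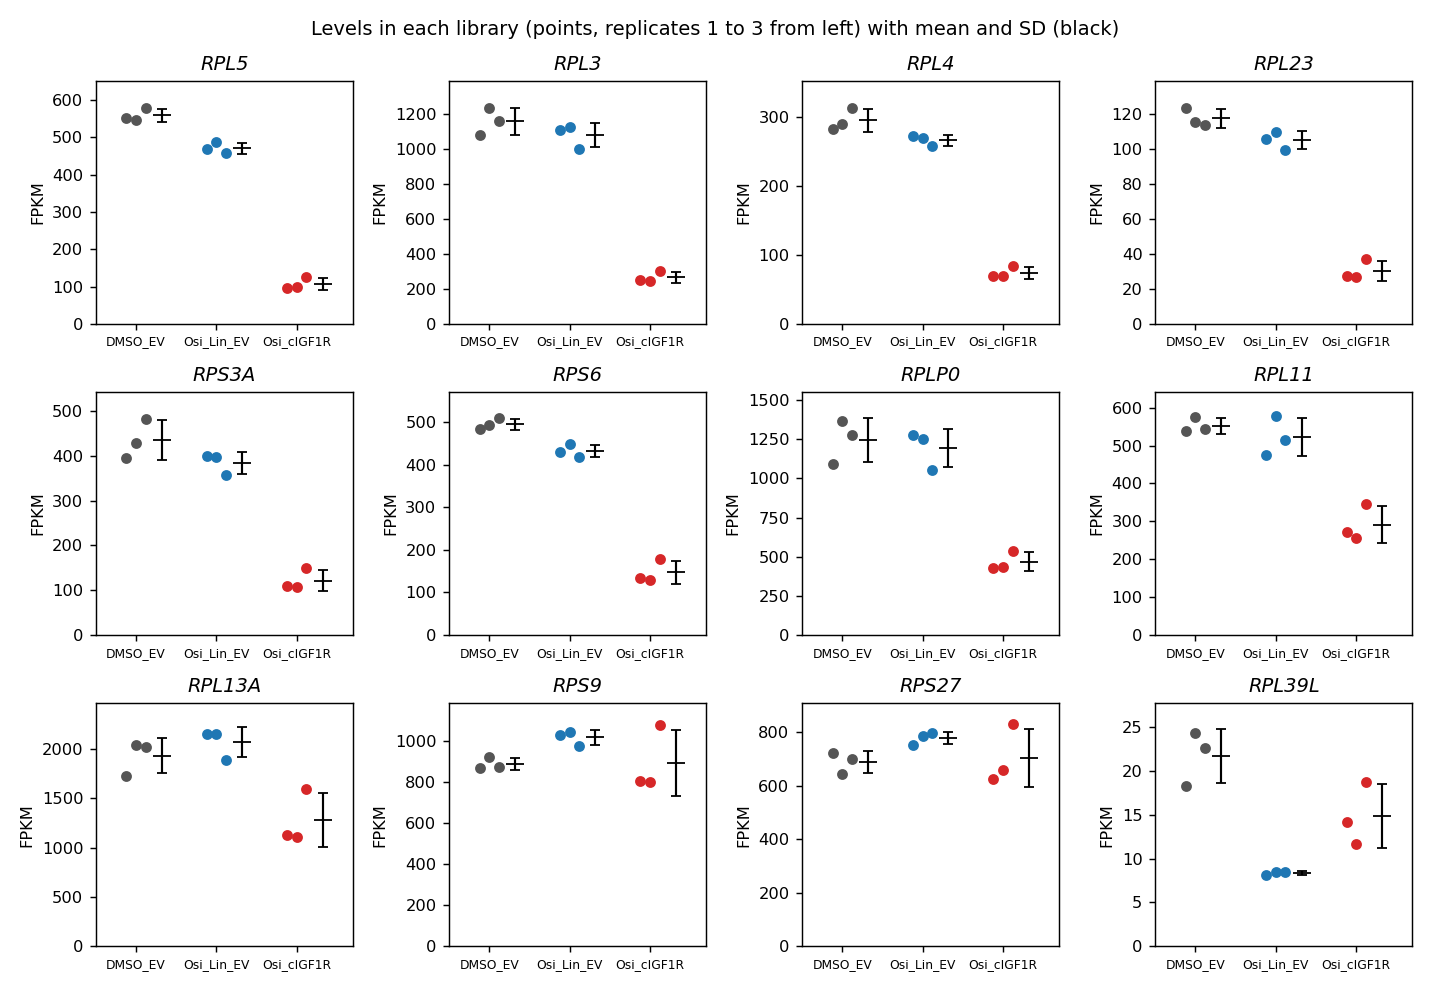
FPKM of 12 ribosomal protein genes in each library, with the group mean and SD beside the points; every axis starts at 0. RPL5, RPL3, RPL4 and RPL23 in Osi_cIGF1R lie well below the other groups, RPS9 and RPS27 overlap between DMSO_EV and Osi_cIGF1R, and RPL39L is lowest in Osi_Lin_EV.

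The 3 Osi_cIGF1R libraries did not fall alike. Their median changes from the vehicle mean were -1.14, -1.09 and -0.67, the last in the third library. The median coefficient of variation over the genes was 18.4% in Osi_cIGF1R, 6.35% with vehicle and 5.09% in Osi_Lin_EV. The median change was -1.11 without the third library, -0.89 without the first and -0.90 without the second. The number that fell stayed between 72 and 76 whichever library was left out. RN7SL1, a small RNA of RNA polymerase III, was at 53.2, 3.16 and 6.37 FPKM in the Osi_cIGF1R libraries, in replicate order. With vehicle it was at 46.4, 443 and 36.1 FPKM in the same order. Why the Osi_cIGF1R libraries did not fall alike was not tested.

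Under osimertinib with linsitinib, most ribosomal protein mRNAs did not pass the test. None of the 79 rose, 7 fell and 72 were not past the threshold, against 23.5% of all tested genes that fell and 29% that rose, 52.6% in all. The median change was -0.17, and 0.05 over all tested genes. The Osi_Lin_EV values lay wholly below the vehicle values in 38 of the 79 genes and wholly above in 3, against 27.6% and 34.3% of all tested genes. The count of falls changed with the libraries in the fit, which share 1 estimate of the spread: with only the 2 compared groups in the fit 30 fell and 1 rose, and with the third Osi_cIGF1R library left out 36 fell and 3 rose. Of the 7, 3 belong to the large subunit and 4 to the small subunit. A fall by 1 or more was seen for 1 gene and a rise of that size for none, against 5.54% and 3.65% of all tested genes.

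RPL39L, a paralog of RPL39 best known from testis, had the largest change of Osi_Lin_EV. It was at 18.3, 24.3 and 22.6 FPKM with vehicle and at 8.08, 8.46 and 8.48 in Osi_Lin_EV, 2.60-fold lower (change -1.27 ± 0.15, limma adjusted p = 9.1e-06). Its groups were far apart at a level that is low for a ribosomal protein gene. RPS29 changed by -0.57 ± 0.16 (limma adjusted p = 0.0101), RPL35, near the tunnel exit, by -0.49 ± 0.13 and RPSA by -0.49 ± 0.13. RPSA was at 472, 570 and 559 FPKM with vehicle and at 399, 396 and 342 in Osi_Lin_EV, so its groups did not overlap either. RPS26, with -0.42 ± 0.12, and RPL21, with -0.36 ± 0.14, also passed. RPL21 lost the call in 8 of the other settings and RPS29 with no filter on low values (adjusted p = 0.0566).

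Apart from RPSA and RPL39L, the tested genes named for their role or their level did not pass the test in Osi_Lin_EV, which does not show that they were equal to vehicle. In the 5S particle the values were -0.25 ± 0.11 for RPL5 (limma adjusted p = 0.0845) and -0.08 ± 0.13 for RPL11. RPL5 was at 467, 486 and 457 FPKM, below every vehicle value, and passed in 5 of the other settings. RPL3 stood at -0.10 ± 0.12 and RPS6, at 430, 447 and 419 FPKM, at -0.20 ± 0.12 (limma adjusted p = 0.192). For the stalk the values were -0.06 ± 0.14 for RPLP0, -0.18 ± 0.14 for RPLP1 and -0.16 ± 0.15 for RPLP2. RPS27A stood at -0.38 ± 0.16 and passed in 8 of the other settings, and RPL22 stood at -0.23 ± 0.11 and passed in 5. RPL39 stood at -0.21 ± 0.14 and RPL10 at 0.15 ± 0.12. In other settings RPL39 passed as lower in 3, RPS6 in 2 and RPLP1 in 1, whereas RPS27 passed as higher in 3 and RPL10 in 1. Among the most abundant genes the values were -0.14 ± 0.14 for RPS2 and 0.10 ± 0.15 for RPL13A. RPS27, at 751, 784 and 795 FPKM, lay above every vehicle value with 0.18 ± 0.12, and RPS27L overlapped with vehicle at 0.16 ± 0.11.

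Both treated groups received osimertinib for 8 days, and their ribosomal protein mRNAs differed. In Osi_cIGF1R 71 of the 79 genes were lower than in Osi_Lin_EV, 1 was higher and 7 did not pass, against 34.8% lower and 25.9% higher over all tested genes, 60.7% in all. The median difference was -0.81, and -0.09 over all tested genes. The difference was -1 or below in 24 of the 79 genes and 1 or above in none, against 4.38% and 6.58% of all tested genes. The Osi_cIGF1R values all lay lower in 71 genes and all higher in 1, against 38.4% and 29.6%. The 43 large-subunit and 28 small-subunit genes that were lower had RPL5 (-2.13 ± 0.11, limma adjusted p = 4.32e-09), RPL3 (-2.02 ± 0.12), RPL4 (-1.84 ± 0.10), RPL23 (-1.77 ± 0.12) and RPS3A (-1.67 ± 0.14) at the head. The difference was -1.56 ± 0.12 for RPS6, -1.26 ± 0.13 for RPSA, -1.35 ± 0.14 for RPLP0 and -0.85 ± 0.13 for RPL11.

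RPL39L was the 1 gene that was higher, at 14.2, 11.6 and 18.8 FPKM in Osi_cIGF1R against 8.08, 8.46 and 8.48 in Osi_Lin_EV (difference 0.74 ± 0.15, limma adjusted p = 0.000721). Genes not past the threshold were RPS29, RPL34, RPL39, RPL41, RPS27L, RPS9 and RPS27. RPL39 was at 1032, 1052 and 1470 FPKM in Osi_cIGF1R and at 1449, 1478 and 1270 in Osi_Lin_EV, which overlapped (difference -0.26 ± 0.14, limma adjusted p = 0.14). RPL41, which encodes the shortest ribosomal protein, differed by -0.28 ± 0.15 and RPS29 by -0.25 ± 0.16. Without the third Osi_cIGF1R library all 7 were lower as well, with limma adjusted p from 0.000989 for RPL39 to 0.0342 for RPS27L. This comparison shares its Osi_cIGF1R libraries with that against vehicle, and the 2 vehicle comparisons share their DMSO_EV libraries, so they are not independent of each other.

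Several ribosomal proteins have a paralog, and ratios within a library compare the mRNAs of such a pair free of scaling. RPL39 over RPL39L was 75.5 ± 9.54 (SD, n = 3) with vehicle, 168 ± 15.9 in Osi_Lin_EV and 80.6 ± 9.13 in Osi_cIGF1R. RPL22 over RPL22L1 was 24.8 ± 2.98, 46.4 ± 1.48 and 20.2 ± 0.711 in the same order. For both pairs all Osi_Lin_EV ratios lay above all others, and both paralogs, RPL39L and RPL22L1, were lower there than with vehicle. RPL7 over RPL7L1 was 13.4 ± 0.387 with vehicle, 17.0 ± 0.566 in Osi_Lin_EV and 6.97 ± 0.746 in Osi_cIGF1R. RPL36A over RPL36AL was 2.30 ± 0.0455, 2.29 ± 0.0507 and 1.60 ± 0.122. RPS27 over RPS27L, at 334 ± 14.2, 323 ± 37.8 and 364 ± 16.3, differed by little more than its spread. These ratios were given no test.

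**Figure D4:**
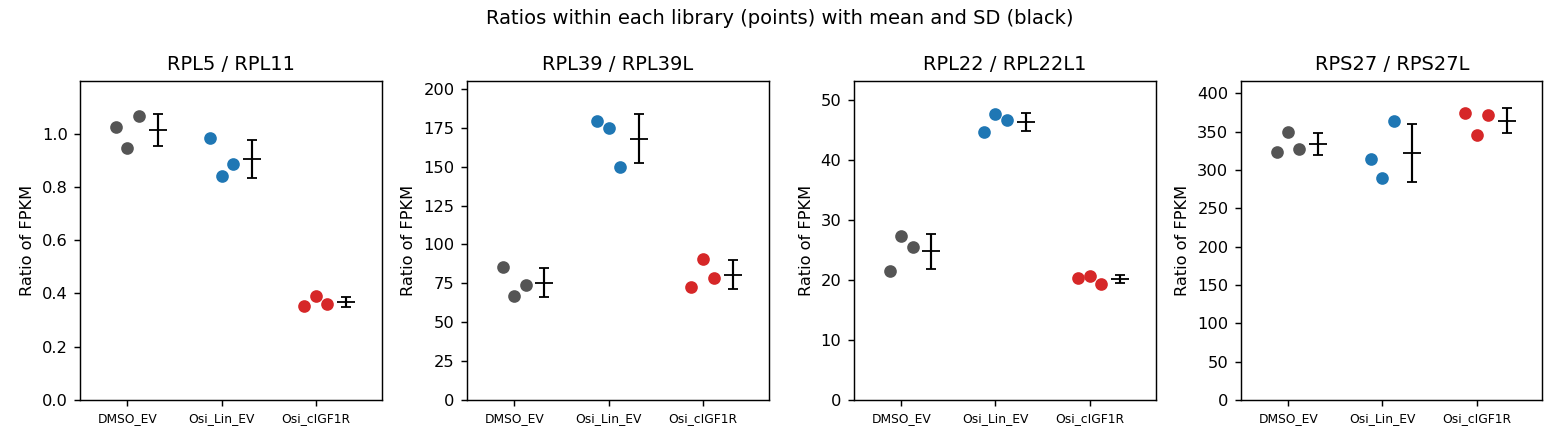
Ratio of FPKM of 2 genes within each library, with the group mean and SD; every axis starts at 0. RPL5 over RPL11 is lowest in Osi_cIGF1R (0.353 to 0.389), and RPL39 over RPL39L and RPL22 over RPL22L1 are highest in Osi_Lin_EV.

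The balance of the subunits shifted little. Summed large-subunit over summed small-subunit FPKM was 1.22 ± 0.00580 (SD, n = 3) with vehicle, 1.27 ± 0.00524 in Osi_Lin_EV and 1.27 ± 0.00638 in Osi_cIGF1R. The vehicle ratios, 1.21 to 1.22, lay below those of both treated groups, 1.26 to 1.28.

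The symbol rule left out 7 listed genes of ribosomal proteins and their paralogs. Of these, 6 fell in Osi_cIGF1R and 1 did not pass, and 3 fell in Osi_Lin_EV. Over all tested genes 35.8% and 23.5% fell. FAU, made as a fusion of a ubiquitin-like protein with eS30 of the small subunit, was at 606, 630 and 576 FPKM with vehicle, 423, 449 and 400 in Osi_Lin_EV, and 261, 253 and 361 in Osi_cIGF1R. It fell in both treated groups, with changes of -0.51 ± 0.13 in Osi_Lin_EV and -1.07 ± 0.13 in Osi_cIGF1R (limma adjusted p = 0.00593 and 9.48e-06). RACK1, a scaffold protein on the small subunit, changed by -1.12 ± 0.13 in Osi_cIGF1R and stood at -0.12 ± 0.13 in Osi_Lin_EV, not past the threshold. RPL22L1 fell to a like level in both, from 6.71 ± 1.03 FPKM (SD, n = 3) to 3.01 ± 0.0543 and 3.20 ± 0.577. RPL7L1 changed by -0.50 ± 0.12 and -0.51 ± 0.12. RPL26L1 and RPL36AL fell in Osi_cIGF1R, with changes of -0.81 ± 0.12 and -0.45 ± 0.11, and stood at -0.23 ± 0.12 and -0.02 ± 0.11 in Osi_Lin_EV without passing the test. Under rescaling to equal totals RPL36AL and RPL7L1 no longer passed in Osi_cIGF1R. Between the treated groups RACK1, RPL26L1, FAU and RPL36AL were lower in Osi_cIGF1R, with differences of -1.01, -0.58, -0.56 and -0.43, the last not under equal totals.

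Ribosomal protein genes have many processed copies, and reads of a gene and its copies can be assigned to either. The table held 1236 rows named as ribosomal protein pseudogenes, from 77 of the 80 genes, and their summed FPKM was 7.43 to 8.01% of the sum over the 80 genes in every library. Of the 180 that were tested, 143 fell and 3 rose in Osi_cIGF1R (median -0.80), and 22 fell and 11 rose in Osi_Lin_EV (median -0.07). Over all tested genes 35.8% fell and 33.1% rose in Osi_cIGF1R, and 23.5% fell and 29% rose in Osi_Lin_EV. The Osi_Lin_EV counts are under those shares. For 22 genes the copies held over 10% of the summed level of gene and copies in DMSO_EV. They held most for RPS28 (73.1%) and RPL9 (54.1%), followed by RPL36A (37.5%), RPL14 (33.5%), RPL22 (29.0%), RPL7 (25.4%) and RPL10 (25.1%). The levels of these genes are uncertain, and so are the paralog ratios of RPL36A, RPL22 and RPL7. The shares for RPS28 and RPL9 were 72.6% and 52.5% in Osi_cIGF1R.

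Other mRNAs with a TOP tract encode translation factors and related proteins. Of 17 such genes 16 fell in Osi_cIGF1R against vehicle and none rose (median -0.93), and all 17 were lower than in Osi_Lin_EV (median -1.17). Over all tested genes 35.8% fell and 33.1% rose against vehicle, and 34.8% were lower and 25.9% higher than in Osi_Lin_EV. NAP1L1, a histone chaperone, went from 30.3, 30.7 and 29.7 FPKM to 3.56, 3.71 and 4.56 (change -2.66 ± 0.12, limma adjusted p = 2.35e-10). EEF1B2, an exchange factor for elongation factor 1A, changed by -2.47 ± 0.13 and NPM1, the nucleolar protein nucleophosmin, by -1.93 ± 0.12. EEF2, the translocation factor, was at 641, 629 and 552 FPKM in Osi_Lin_EV and at 191, 190 and 175 in Osi_cIGF1R, a difference of -1.71 ± 0.12. With vehicle EEF2 was at 404, 535 and 505 FPKM. Against vehicle it rose in Osi_Lin_EV (0.34 ± 0.12, limma adjusted p = 0.0309) and fell in Osi_cIGF1R (-1.36 ± 0.12). In Osi_Lin_EV against vehicle 3 rose, 3 fell and 11 did not pass (median -0.06). Both counts are under the 29% of all tested genes that rose and the 23.5% that fell. The 3 that fell were NPM1 (-0.67 ± 0.12), EEF1B2 (-0.64 ± 0.13) and NAP1L1 (-0.51 ± 0.12). Among 10 host genes of small nucleolar RNAs, which have TOP transcripts, 6 fell in each of the 3 comparisons, beside the same shares over all tested genes. SNHG16 changed by -1.94 ± 0.09, SNHG29 by -1.70 ± 0.12 and SNHG8 by -1.61 ± 0.11 in Osi_cIGF1R, and 1 host gene rose there. In Osi_Lin_EV the leading falls were SNHG1 (-0.75 ± 0.13), SNHG16 (-0.74 ± 0.09) and SNHG8 (-0.71 ± 0.11), and none rose. Between the treated groups 2 host genes were higher in Osi_cIGF1R, against 25.9% of all tested genes.

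Among the ribosomal protein genes themselves the change was set against the tract at the annotated start. The median change in Osi_cIGF1R was -0.89 for the 46 genes with the tract, -0.97 for the 17 with another start and -1.09 for the 16 tested genes with no start in the table. In Osi_Lin_EV the first 2 medians were -0.17 and -0.15. RPL3, RPL4 and RPL6, all with large falls, were among the 17 whose annotated start lacks these letters. Starts used in these cells were not measured, so the medians cannot separate mRNAs that carry the tract from mRNAs that lack it. Over the 79 genes the change in Osi_cIGF1R had a Spearman's rho of -0.01 with the level in DMSO_EV and of -0.06 with the genomic span. Over all tested genes the same rho were -0.26 (n = 13775) and 0.20 (n = 13309 with a span). The genes share their libraries, so these are descriptions. Lengths of the mRNAs were not used here.

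Genes that act on ribosomal proteins were read from lists of known roles. Of 8 dedicated chaperones and escorts of ribosomal proteins 6 fell in each treated group against vehicle. Over all tested genes 23.5% fell in Osi_Lin_EV and 35.8% in Osi_cIGF1R, which also serve for the second list below. LTV1, an export adaptor of the small subunit, changed by -1.05 ± 0.12 in Osi_Lin_EV and -1.40 ± 0.12 in Osi_cIGF1R. BCCIP, a partner of RPL23, changed by -0.84 ± 0.09 and -1.21 ± 0.09, and PDCD2L, an escort of RPS2, by -0.83 ± 0.11 and -1.58 ± 0.11. Between the treated groups 5 were lower in Osi_cIGF1R and 1 was higher, against 34.8% and 25.9% of all tested genes. The leading ones were PDCD2L (-0.75 ± 0.11) and HEATR3 (-0.54 ± 0.10), which carries RPL5. PDCD2 differed by -0.50 ± 0.15 (limma adjusted p = 0.0111), and lost the call in 4 of the other settings. All 4 factors known to bind idle ribosomes fell in Osi_cIGF1R and 3 in Osi_Lin_EV: CCDC124 changed by -1.60 ± 0.12 and -0.49 ± 0.12, IFRD2 by -1.27 ± 0.10 and -0.97 ± 0.10, and SERBP1 by -1.10 ± 0.11 and -0.78 ± 0.11. All 4 were lower in Osi_cIGF1R than in Osi_Lin_EV, with CCDC124 (-1.11 ± 0.12), HABP4 (-0.61 ± 0.10) and SERBP1 (-0.32 ± 0.11) the leading ones. The call for SERBP1 was lost in 6 of the other settings, with adjusted p up to 0.715.

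Of 14 genes of mTORC1, S6 kinase and TOP control, 2 rose and 3 fell in Osi_Lin_EV, against 29% and 23.5% of all tested genes. In Osi_cIGF1R 3 rose and 5 fell against either other group, where 33.1% and 35.8% of all tested genes rose and fell against vehicle and 25.9% and 34.8% against Osi_Lin_EV. These counts are near or under the shares over all tested genes. EIF4EBP1, a translation repressor switched off by mTORC1, was at 61.8, 64.5 and 58.0 FPKM with vehicle, 30.2, 36.7 and 31.1 in Osi_Lin_EV and 14.6, 16.3 and 18.4 in Osi_cIGF1R. The 3 groups did not overlap (changes -0.89 ± 0.11 and -1.84 ± 0.11, limma adjusted p = 1.26e-05 and 4.3e-09). In Osi_Lin_EV RHEB, the activator of mTORC1, changed by -0.73 ± 0.10 and TSC2, its inhibitor, by 0.67 ± 0.10. In Osi_cIGF1R AKT1S1, an inhibitory partner of mTORC1, changed by -0.999 ± 0.096 and RPS6KB2, an S6 kinase, by -0.77 ± 0.11. DEPTOR, an mTOR inhibitor, was at 1.81 FPKM on average in Osi_cIGF1R and 0.501 in Osi_Lin_EV (difference 0.90 ± 0.12), and AKT1S1 differed by -0.63 ± 0.10. LARP1 did not pass in any comparison, at 35.1 ± 4.06 FPKM (SD, n = 3) with vehicle, 29.5 ± 1.49 and 30.2 ± 5.64.

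Among 8 transcription factors of ribosomal protein genes, MYC, a general activator of ribosome production, was at 23.5, 25.6 and 27.0 FPKM with vehicle, 10.2, 10.2 and 9.57 in Osi_Lin_EV and 6.60, 6.65 and 6.98 in Osi_cIGF1R. It fell in both (-1.26 ± 0.09 and -1.77 ± 0.09), and its partner MAX rose in Osi_cIGF1R (1.03 ± 0.10) and stood at 0.15 ± 0.10 in Osi_Lin_EV. Counts over the 8 were 1 higher and 2 lower in Osi_Lin_EV, and 3 higher and 2 lower in Osi_cIGF1R, which do not stand out from the 29% higher and 23.5% lower, and 33.1% and 35.8%, of all tested genes. GABPB1, a subunit of the ETS factor GABP, was lower in both, at -0.81 ± 0.11 and -0.66 ± 0.11. Between the treated groups MYC differed by -0.50 ± 0.09, a call lost under equal totals, and MAX and SP1 were higher by 0.88 ± 0.10 and 0.44 ± 0.12. Of 11 genes of ribosomal RNA transcription by polymerase I, 7 fell and 2 rose in Osi_Lin_EV, and 8 fell and 1 rose in Osi_cIGF1R. TAF1A, of the promoter selectivity factor SL1, changed by -1.02 ± 0.12 and -1.06 ± 0.12, and POLR1C, a subunit of polymerases I and III, by -0.76 ± 0.12 and -1.40 ± 0.12. Between the treated groups 5 were lower in Osi_cIGF1R and 1 was higher, against 34.8% and 25.9% of all tested genes. TAF1C led, at -0.84 ± 0.11. Of 78 mitochondrial ribosomal proteins 45 fell and 1 rose in Osi_Lin_EV (median -0.37), and 68 fell and 4 rose in Osi_cIGF1R (median -0.73). The cytosolic count in Osi_Lin_EV was 7 of 79, or 30 with only the compared groups fitted and 36 without the third Osi_cIGF1R library. The mitochondrial count under those fits is not given here. All Osi_Lin_EV values lay below vehicle in 57 of the 78 mitochondrial and 38 of the 79 cytosolic genes, against 27.6% of all tested genes. The difference between the 2 sets was not tested.

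RPL5 and RPL11 in the 5S particle bind MDM2, the ligase that degrades p53, so the genes of that axis were read beside them. CDKN1A, a p53 target that arrests the cell cycle, was at 26.7, 31.1 and 31.8 FPKM with vehicle, 24.9, 25.6 and 22 in Osi_Lin_EV and 70.7, 75.3 and 77 in Osi_cIGF1R. All Osi_cIGF1R values lay above all others (change 1.29 ± 0.10, limma adjusted p = 6.67e-08), and in Osi_Lin_EV it changed by -0.29 ± 0.10 (adjusted p = 0.0217), a call lost in 5 of the other settings. MDM2 changed by -0.40 ± 0.10 in Osi_Lin_EV and stood at 0.03 ± 0.10 in Osi_cIGF1R, at a level of 3.06 to 4.49 FPKM on average. MDM4, a partner of MDM2, changed by -0.35 ± 0.13 in Osi_cIGF1R (limma adjusted p = 0.0277), a call lost in 7 of the other settings. Between the treated groups CDKN1A and MDM2 were higher in Osi_cIGF1R, by 1.58 ± 0.10 and 0.44 ± 0.10 (limma adjusted p = 1.91e-08 and 0.00176). MDM4 was lower there by -0.48 ± 0.13 (limma adjusted p = 0.00602), a call lost under equal totals.

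**Figure D5:**
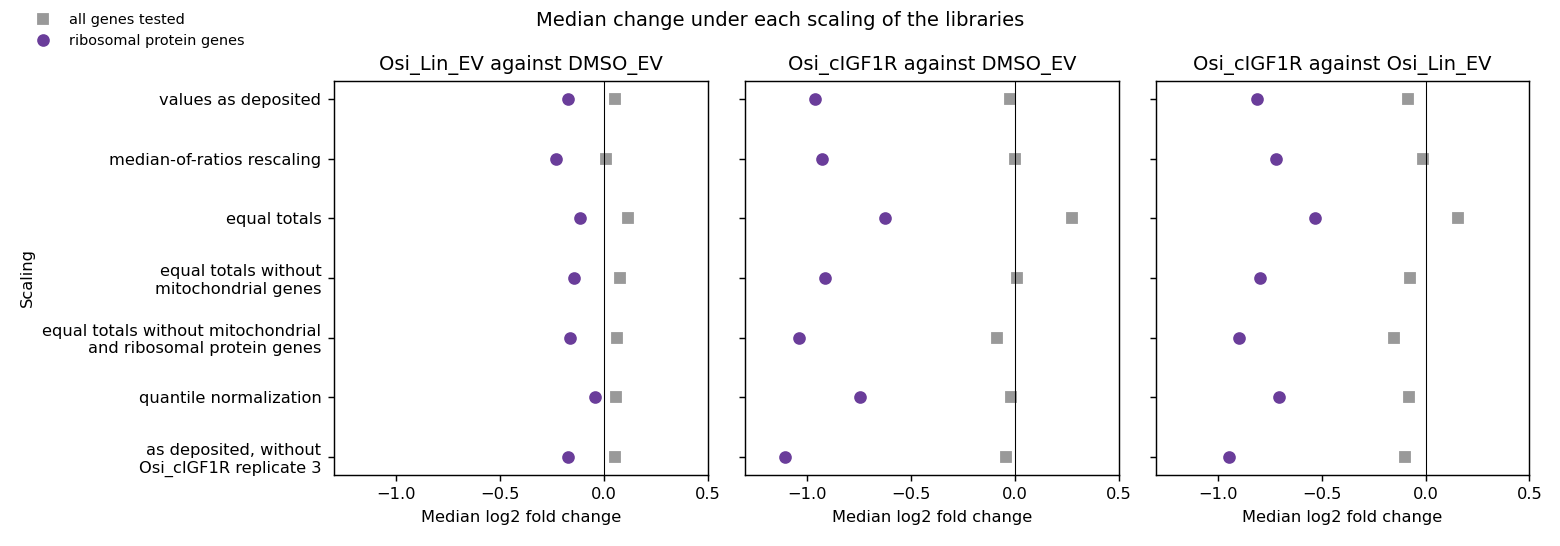
Median log2 change over the 79 tested ribosomal protein genes (circles) and over all tested genes (squares) for each comparison and each way of scaling the libraries, with the values as deposited but without the third Osi_cIGF1R library in the last row. In both comparisons of Osi_cIGF1R the circles lie between -1.04 and -0.53 under the scalings drawn, at -1.11 and -0.94 without that library, and left of the squares in every row.

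Mitochondrially encoded genes took a smaller share of the Osi_cIGF1R libraries, so the scaling was varied. Rescaling each library to the same total moved the median of all tested genes in Osi_cIGF1R from -0.03 to 0.27, and its counts from 4563 higher and 4936 lower to 6448 higher and 3251 lower. The median of the ribosomal protein genes became -0.63, so that their median minus that of all tested genes was -0.90, against -0.94 with the deposited values. With mitochondrial genes left out of the total the median of the ribosomal protein genes itself was -0.92. It was -1.04 with both them and the ribosomal protein genes left out, and -0.74 with quantile normalization. Minus the median of all tested genes, these became -0.93, -0.95 and -0.72. Of the 79 genes, 77 lay below the median of all tested genes with the deposited values and 75 with quantile normalization. In Osi_Lin_EV the median ran from -0.23 with median-of-ratios rescaling to -0.05 with quantile normalization.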

How the data were processed

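The series has 21 samples: 9 RNA-seq libraries of H1975, which were used, and 12 circRNA libraries, which were not. The deposited table names no unit. Its fractional values, with totals that differ between libraries, were taken as FPKM made by the authors, with depth unknown and no counting interval. The build hg38 and the tools STAR, edgeR and Bowtie2 2.1.0 come from the submitters' processing notes, which give them no role or order. For the counter, the annotation and strandedness the entry is: not given in the sources used here. A single extraction protocol in the labels, with 3 days and RNase R (which removes linear RNA), covers all samples, and whether these libraries had it is not settled.

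Genes with at least 1 FPKM in 3 libraries (13775 of 34021) were fitted together in limma 3.58.1 (R 4.3.3) on log2(FPKM + 1), with trend and robust variance and all 9 libraries. This scale understates changes of low genes. P-values were adjusted over all tested genes (threshold 0.05). The fit was run on simulated data in which genes varied independently, with equal spread in all groups and few changed genes. Genes that move together and groups of unequal spread were not simulated. Named per comparison were the 5 largest rises and falls, the 3 highest genes, genes fixed for their role, and up to 3 genes per list. Members and lists were chosen with earlier results of these data known; RPS26, RPL21, RPS9, RPL28, RPL34 and RPL41, and RPS29 outside the Osi_Lin_EV comparison, were added after their values were seen. RPL10L was not analysed here. Some genes that this rule names are in every fit and count but are not reported here by name. All 80 symbols matched RefSeq GRCh38.p14, which gave positions and start sequences. Alternatives changed the scaling, filter, pseudocount, variance model, groups fitted, replicate block and libraries.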

Additional observations from a re-analysis of the deposited data

How the results depend on the processing

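Each choice was changed alone, and named genes kept direction and side of the threshold in 3199 of their values, while 57 gained a call, 47 lost one and 40 changed sign. In Osi_Lin_EV against DMSO_EV the members lower were 19 with a median of -0.234 under median-of-ratios rescaling, 21 with equal totals without mitochondrial and ribosomal protein genes, 18 (with 1 higher) without mitochondrial genes, and 30 (with 1 higher) with the compared groups only. There 1 was higher with a median of -0.115 under equal totals, and 6 were higher with a median of -0.0452 under quantile normalization. With a log2 change of 1 or more required, 1 was lower there, 33 in Osi_cIGF1R against DMSO_EV, and 24 lower and 0 higher against Osi_Lin_EV. In Osi_cIGF1R against DMSO_EV 2 were higher with a median of -0.626 under equal totals, and 2 with a median of -0.744 under quantile normalization. Against Osi_Lin_EV the median was -0.534 under equal totals and 3 were higher under quantile normalization. Leaving out 1 library in turn gave for Osi_Lin_EV 0 to 3 higher, 5 to 36 lower and a median of -0.193 to -0.126, where 36 came without Osi_cIGF1R replicate 3. For Osi_cIGF1R against DMSO_EV it gave 72 to 76 lower and a median of -1.11 to -0.887, and against Osi_Lin_EV 68 to 78 lower and a median of -0.945 to -0.725. Replicate numbers are shared by the groups. Deviations from the group mean correlated at -0.315 to 0.0358 over 9 same-numbered pairs of libraries, and at -0.155 to 0.329 over pairs with different numbers. With 3 libraries per group these values cannot show whether libraries of the same number were prepared together. With the number as a replicate block 7, 76 and 71 members were lower in the 3 comparisons, against 7, 75 and 71. Signs changed for these genes. In Osi_Lin_EV quantile normalization gave RPL11 0.0816, RPL3 0.0483, RPLP0 0.0295, RPS6 0.0289, RACK1 0.0324 and RPL36AL 0.0649; RPL36AL was 0.04 under equal totals and 0.01 without mitochondrial genes. In Osi_cIGF1R RPS27 was -0.0528 without mitochondrial and ribosomal protein genes, RPS27L 0.200 under equal totals, and RPS9 0.0275 by median of ratios, 0.334 under equal totals, 0.0393 without mitochondrial genes and 0.526 by quantiles. Against Osi_Lin_EV RPL39 was 0.0229, RPS27 0.128, RPS29 0.0292, RPS9 0.0779 and RPL7L1 0.267 under equal totals; RPL39 0.0246, RPS27 0.235, RPL41 0.0696 and RPS9 0.240 by quantiles; RPL22L1 -0.00967 without mitochondrial and ribosomal protein genes; RPL7L1 0.0821 by median of ratios; and RPL7L1 0.00919 without mitochondrial genes. Leaving out 1 library in turn gave in Osi_Lin_EV RPLP0 -0.155 to 0.0238 and RPL36AL -0.0553 to 0.047; in Osi_cIGF1R RPS27 -0.0962 to 0.106, RPS27L -0.135 to 0.00187 and RPS9 -0.148 to 0.069; and against Osi_Lin_EV RPL22L1 -0.0513 to 0.123 and RPL7L1 -0.0861 to 0.06. The causes were not tested, and the unknown depth sets no limit that could be computed.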
